A study of Mus musculus with 10 samples.

Results

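Gse1 is the protein-coding mouse gene with the most CG positions listed as carrying 5-carboxylcytosine (5caC) in both groups of Tdg cells, and it was chosen by that number. The members are all positions that the authors' deposited coverage table lists inside the RefSeq span of the gene (gene ID 382034, mm10 chr8:120228501-120581383, plus strand) or in the 20 kb on each side of it (chr8:120208501-120601383). They are 1111 distinct positions of the 922427 in the table, or 1575 of its 1183229 entries of a position and a group. Of them, 1045 lay in the span itself. The gene spans 352.883 kb, against a median of 17.3 kb over 21631 protein-coding genes, 433 of which are longer. RefSeq lists 11 transcripts of it, 3 curated and 8 predicted.

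The DNA came from mouse embryonic stem cells, grown without feeder cells in serum medium with LIF, the cytokine that keeps such cells undifferentiated. The groups were Tdg cells in serum2i, Tdg cells in serum, wild-type (wt) cells in serum2i, wt cells in serum, and a control that lacks every Tet gene and was grown in serum, with 2 technical replicates each. The serum2i medium adds to the serum medium CHIR99021 at 3 µM, which inhibits GSK3, and PD0325901 at 1 µM, which inhibits MEK. The labels name the gene Tdg without the kind of alteration and name no clone or line, and DNA sites give no marker of cell type to check the cells against. The table holds 1 coverage value for each listed position and group, read here as the mean of the 2 technical replicates, so no spread between replicates can be given and no p-value was computed. It holds no entry for the control, which is not analysed here, so no background level stands beside the values. A group lists positions only from a mean coverage of 6 in either Tdg group, 4 in serum2i wt and 3 in serum wt. A position that a group does not list therefore has an unknown value there, not a value of 0. Outside the Gse1 region the listed coverage summed to 12335525 in serum2i Tdg, 7471218 in serum Tdg, 888795.5 in serum2i wt and 42987 in serum wt cells. These sums are not read depth: they depend on how much was listed and on the minimum of each group.

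5caC is the last oxidation product that the TET enzymes make from 5-methylcytosine, after the hydroxymethyl and formyl forms. Thymine DNA glycosylase, encoded by Tdg, cuts out the formyl and carboxyl forms, and base excision repair then puts back an unmodified cytosine. In cells without this glycosylase, 5caC that would be short-lived builds up. Human GSE1 is a coiled-coil protein found in complexes with the histone demethylase LSD1, the scaffold CoREST and the histone deacetylases HDAC1 and HDAC2.

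Gse1 has 3 start windows in the RefSeq promoter table for GRCm38.p6, the same assembly as mm10, each covering 250 bases before to 50 after a transcription start. The starts lie at positions 120488866, 120535857 and 120537409, which is 260.4, 307.4 and 308.9 kb from the lower end of the span. No Gse1 window covers that lower end, where the span of this plus-strand gene begins, so the 3 starts may not be all. The 3 windows are shown because CGs are dense in them and yet none of their CGs was listed in any group. Capitals mark every CG, on the plus strand.
Gse1 start 1, chr8:120488616-120488915: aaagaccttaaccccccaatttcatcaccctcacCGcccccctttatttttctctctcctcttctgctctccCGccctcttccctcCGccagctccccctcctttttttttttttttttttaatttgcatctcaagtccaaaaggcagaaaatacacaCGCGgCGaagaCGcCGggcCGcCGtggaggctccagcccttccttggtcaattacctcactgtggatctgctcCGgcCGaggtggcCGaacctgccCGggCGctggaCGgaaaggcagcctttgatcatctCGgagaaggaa
Gse1 start 2, chr8:120535607-120535906: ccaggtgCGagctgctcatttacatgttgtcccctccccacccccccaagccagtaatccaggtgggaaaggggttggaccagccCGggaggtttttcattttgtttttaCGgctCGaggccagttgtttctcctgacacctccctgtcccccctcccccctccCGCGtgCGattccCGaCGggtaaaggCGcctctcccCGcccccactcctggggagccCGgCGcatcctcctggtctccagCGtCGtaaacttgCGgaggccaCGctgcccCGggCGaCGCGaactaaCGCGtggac
Gse1 start 3, chr8:120537159-120537458: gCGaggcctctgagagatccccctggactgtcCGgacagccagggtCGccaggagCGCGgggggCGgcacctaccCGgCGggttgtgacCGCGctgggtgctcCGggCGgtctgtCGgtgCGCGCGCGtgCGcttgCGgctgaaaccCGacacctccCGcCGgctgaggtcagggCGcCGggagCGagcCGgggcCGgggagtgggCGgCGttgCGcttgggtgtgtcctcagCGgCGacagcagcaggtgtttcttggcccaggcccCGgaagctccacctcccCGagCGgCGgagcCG

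The motif counted was CG, which reads the same on both strands and cannot overlap itself. The windows hold 17, 23 and 37 CGs. Of 32585 RefSeq windows of this length, 94.7% hold at least 1 CG, 31.6% at least 17, 21.7% at least 23 and 5.62% at least 37. A window with no listed site was the usual case at this CG density. Among the 11352 windows with 15 or more CGs, 3.88% held a listed site in serum2i Tdg, 18.2% in serum Tdg, 0.291% in serum2i wt and 0.617% in serum wt cells.

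Listed sites lay outside these windows. Around start 1 the nearest sites lay 1748 bp before and 1302 bp after it in serum2i Tdg cells, and 1578 bp before and 1235 bp after it in serum Tdg cells. No site lay within 1000 bp of start 1 in either Tdg group, but 16 in serum2i Tdg and 40 in serum Tdg cells lay within 5000 bp. Within the same distance, starts with 15 or more CGs had a median of 4 and a 90th percentile of 12 sites in serum2i Tdg cells, and a median of 3 and a 90th percentile of 17 in serum Tdg cells. The nearest site to start 2 in serum Tdg cells lay 897 bp before it, and the nearest to start 3 lay 1077 bp after it.

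One listed start window inside the gene did hold sites. It belongs to Gm51556, a long non-coding RNA gene (mm10 chr8:120487277-120490453) that runs on the minus strand across the first Gse1 start. Its sequence is shown because 2 of its 5 CGs, in capitals here, were listed in both Tdg groups. At least 5 CGs are found in 62.3% of the windows. Of the windows with 5 to 14 CGs, 28.0% held a listed site in serum2i Tdg and 30.1% in serum Tdg cells, so a listed site was not unusual at this CG density.
Gm51556 start, chr8:120490404-120490703, minus strand: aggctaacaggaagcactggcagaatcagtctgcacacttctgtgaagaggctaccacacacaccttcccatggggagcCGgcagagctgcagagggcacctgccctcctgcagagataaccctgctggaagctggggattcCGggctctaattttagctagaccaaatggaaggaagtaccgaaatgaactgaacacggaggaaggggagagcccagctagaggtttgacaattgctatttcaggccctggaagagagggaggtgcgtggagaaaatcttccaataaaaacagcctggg

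The CG at 120490560 had a mean coverage of 9.5 in serum2i Tdg and 21.5 in serum Tdg cells. The CG at 120490623 had 14 in serum2i Tdg and 31 in serum Tdg cells. Neither was listed in a wt group. Within 1000 bp of this start lay 9 sites in serum2i Tdg and 12 in serum Tdg cells.

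In the Gse1 region the table listed 696 sites in serum2i Tdg, 686 in serum Tdg, 155 in serum2i wt and 38 in serum wt cells. In the span alone there were 653 sites in serum2i Tdg, 655 in serum Tdg, 146 in serum2i wt and 36 in serum wt cells, or 1.85, 1.86, 0.414 and 0.102 sites per kb. The Tdg groups thus held almost the same number of Gse1 sites, although the whole table lists 689303 sites for serum2i Tdg and 374488 for serum Tdg cells. The region held 0.101% of all listed sites in serum2i Tdg, 0.183% in serum Tdg, 0.140% in serum2i wt and 0.438% in serum wt cells.

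Since the number of sites chose the gene, its rank is a description. Gse1 ranked 1 by sites in the span in both Tdg groups and in serum2i wt cells. In serum wt cells it ranked 2, with 36 sites against 51 in Sfi1, a gene of the centrosome protein SFI1. Next in serum2i Tdg cells came Zfhx3, a zinc finger homeobox gene, and Msi2, an RNA-binding protein gene, with 643 sites each. Slc39a11, a zinc transporter gene, had 580 and Tenm3, a teneurin gene, had 568. Next in serum Tdg cells came Zfhx3 with 383 sites, Nfix, a nuclear factor I gene, with 346, Casz1, a zinc finger gene, with 300, and Sh3pxd2a, a podosome scaffold gene, with 285. The gap from Gse1 to the next gene was thus small in serum2i Tdg cells (653 against 643 sites) and wide in serum Tdg cells (655 against 383 sites).

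**Figure D1:**
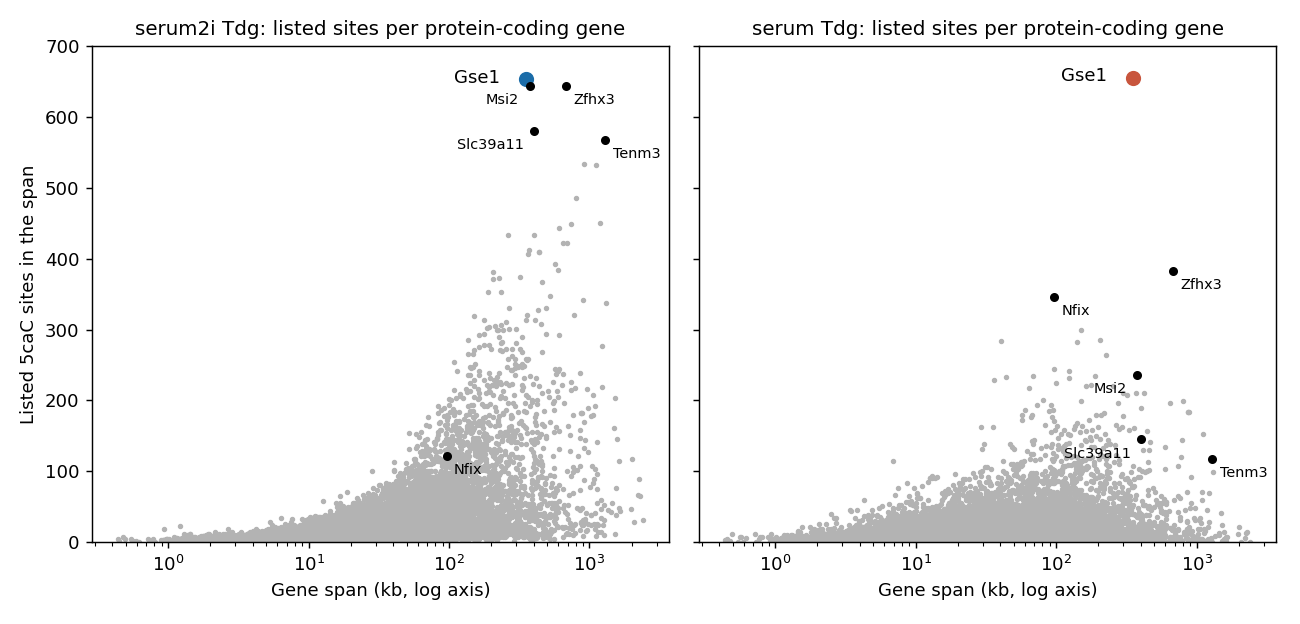
Listed 5caC sites in the span of each protein-coding gene (vertical axis, number of sites) against the span (horizontal log axis, kb), in serum2i Tdg cells at left and serum Tdg cells at right. Gse1 is the large coloured point, 5 of the genes named in the text are black and all others grey. Gse1 stands at 653 and 655 sites, next to Msi2 and Zfhx3 at left and far from every other gene at right.

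For a description by length, Gse1 was set among the 323 protein-coding genes of like span, itself included. Like span means from 0.8 times its own up to the inverse of that ratio. In each group Gse1 had the highest density among them, which in Tdg cells follows largely from its choice by number of sites. The wt groups share many listed positions with the Tdg groups, so their densities are not independent of that choice. The other like-span genes had a median of 0.156 sites per kb and a maximum of 1.70 in serum2i Tdg cells, and a median of 0.0375 and a maximum of 0.7 in serum Tdg cells. Their maximum was 0.294 in serum2i wt and 0.0300 in serum wt cells. By the sum of their densities in both Tdg groups, the 3 densest of them were Msi2, Prdm16, a zinc finger gene with 374 sites in serum2i Tdg and 208 in serum Tdg cells, and Slc39a11. Among genes of any span with at least 10 sites, Gse1 was not the densest: its rank by sites per kb was 643 of 8759 in serum2i Tdg, 1114 of 6295 in serum Tdg, 158 of 1850 in serum2i wt and 7 of 10 in serum wt cells.

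The density was also higher inside the span than around it, which in Tdg cells again follows in part from that choice by number of sites. In wt cells it is not independent of that choice either. The 300 kb below it had 0.647 sites per kb in serum2i Tdg, 0.397 in serum Tdg, 0.197 in serum2i wt and 0.02 in serum wt cells, and the 300 kb above it had 0.817, 0.627, 0.207 and 0.0267. Chromosome 8 as a whole had 0.303 sites per kb in serum2i Tdg, 0.165 in serum Tdg, 0.0610 in serum2i wt and 0.00442 in serum wt cells. The number of CGs along these stretches was not counted, so these are densities by length, without regard to CG content.

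The flanks added few sites. The lower flank held 22 sites in serum2i Tdg, 11 in serum Tdg, 2 in serum2i wt and 2 in serum wt cells, and the upper flank held 21, 20, 7 and 0. The outermost member at the lower edge is position 120209824, listed at 22.5 in serum2i Tdg cells, and the next position beyond that edge is 120208228, listed at 11.5 in serum Tdg cells. At the upper edge the outermost member is 120601108, listed at 6 in serum2i wt cells, and the next beyond it is 120601409, listed at 13 in serum2i Tdg cells.

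Sites were spread along the whole gene in Tdg cells. Each of 40 bins of 10 kb, counted from the lower edge of the region, held at least 2 sites in each Tdg group. In serum2i Tdg cells the fullest bins began 340 kb (53 sites), 270 kb (32 sites) and 30 kb (31 sites) above the lower end of the span. In serum Tdg cells they began at 330 kb (55 sites), 280 kb (48 sites), and 300 and 340 kb (36 sites each). In serum2i wt cells the bins at 340 kb (11 sites) and 230 kb (10 sites) held most, and the bins at 90 and 300 kb held none. In serum wt cells the fullest bin began at 290 kb and held 6 sites. Both groups of wt cells are too thinly listed for a profile by bin.

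**Figure D2:**
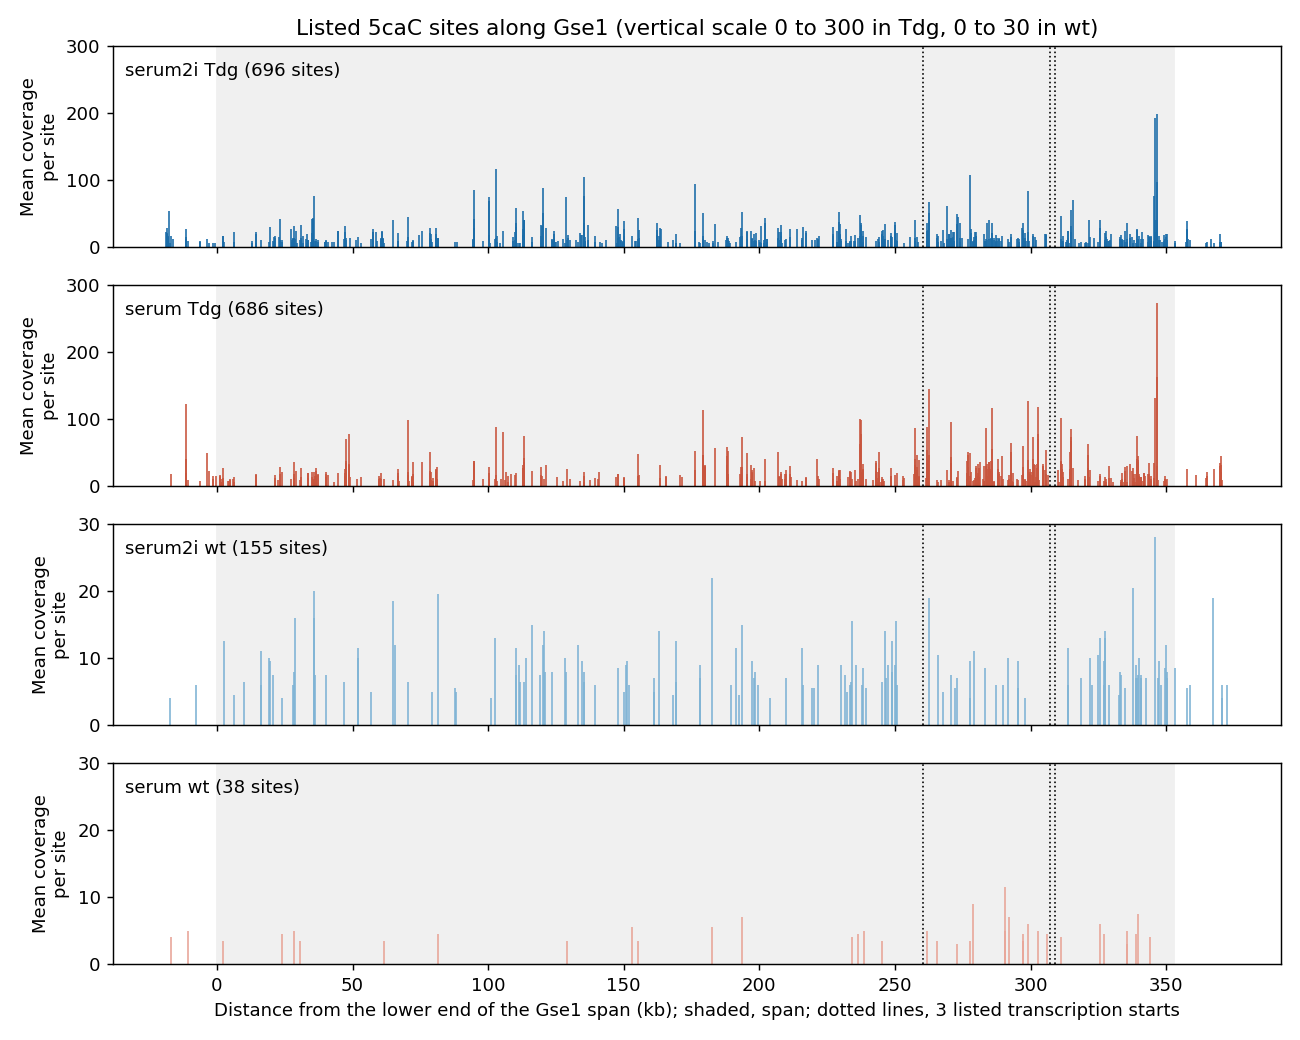
Mean coverage of each listed site (vertical axis) against its distance from the lower end of the Gse1 span (horizontal axis, kb), 1 panel for each group. The vertical axis runs to 300 in Tdg and to 30 in wt cells, the shaded stretch is the span and the dotted lines are the 3 listed starts. The highest lines, at 199 in serum2i Tdg and 273 in serum Tdg cells, stand 346.7 kb along the span.

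The 3′ part of the gene held more sites than the 5′ part. The span was split into 4 equal parts, numbered 1 to 4 from the 5′ end. Part 4 held 34% of the sites in serum2i Tdg cells (exact 95% interval 30.4 to 37.8), 44.3% in serum Tdg cells (40.4 to 48.2), 33.6% in serum2i wt cells (26 to 41.8) and 55.6% in serum wt cells (38.1 to 72.1). These intervals cover counting error only, and the CGs of each part were not counted. Part 2 held 20.5% of the sites in serum2i Tdg cells (17.5 to 23.8) and 11.3% in serum Tdg cells (8.98 to 14). Sites of 1 gene stand close together and are not independent counts, so these intervals do not test the difference between groups. Genes of like span were compared for part 4 only. Median coverage differed less along the gene than the number of sites did. In part 1 it was 12.5 in serum2i Tdg and 14.25 in serum Tdg cells, and in part 4 13.25 in serum2i Tdg and 16 in serum Tdg cells.

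Like-span genes with at least 20 sites in the group had a median of 26.9% of their sites in part 4 in serum2i Tdg cells (190 genes) and 26.1% in serum Tdg cells (98 genes). Gse1 ranked 59 and 21 by this share. The share in serum2i Tdg minus that in serum Tdg cells was -10.3 percentage points in Gse1, against a median of 1.91 points and a lower quartile of -11.6 points among these genes. The lean of serum Tdg sites toward the 3′ end was thus within the range of genes of this length.

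The first listed start divides the gene, a split made after these values were seen. The 260.4 kb before it held 422 sites in serum2i Tdg, 353 in serum Tdg, 96 in serum2i wt and 15 in serum wt cells. The 92.5 kb from it to the 3′ end held 231, 302, 50 and 21. Per kb that came to 1.62 before and 2.50 after the start in serum2i Tdg cells, 1.36 and 3.26 in serum Tdg cells, 0.369 and 0.540 in serum2i wt cells, and 0.0576 and 0.227 in serum wt cells. The stretch after the first start was the denser one in each of the 4 groups. The CGs of either stretch were not counted, so these too are densities by length.

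The culture media were compared along the gene by the share of a group's summed coverage that fell in each bin, as the log2 ratio of serum2i over serum in Tdg cells. A bin was called higher or lower where the shares differed at least 2-fold and the exact 95% interval, which covers counting error only, excluded equal shares. Of the 40 bins, 4 were higher, 16 lower and 20 neither. Over 53057 bins of the genome, 33.3% were higher and 23.3% lower. The Gse1 bins thus had a smaller share of higher calls (10%) and a larger share of lower calls (40%) than the genome. The gene was chosen by its number of sites in the Tdg groups, and that number enters these ratios. Bins of 1 gene are also not replicates, so the shares of calls are a description. The lowest was the short last bin of the upper flank, from 370 kb, at -4.10 with 2 sites in serum2i Tdg and 9 in serum Tdg cells. Next came the bin from 300 kb, which contains the other two starts, at -3.78 (-3.98 to -3.58) with 7 sites in serum2i Tdg and 36 in serum Tdg cells. The highest was the bin from 350 kb at 2.03, with 15 sites in serum2i Tdg and 2 in serum Tdg cells. Most of that bin lies past the end of the span, at 352.883 kb. Its sites include all those of the neighbouring gene Gins2, 13 in serum2i Tdg and 1 in serum Tdg cells.

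Neighbouring bins mostly leaned the same way over stretches of the gene. From 120 to 170 kb, a stretch picked after its values were seen, there were 80 sites in serum2i Tdg, 31 in serum Tdg, 22 in serum2i wt and 3 in serum wt cells. The log2 ratio of coverage shares there was 1.02 (0.92 to 1.12). Within this stretch the bin from 150 kb had no lean, at 0.02 (-0.21 to 0.25). From 280 to 320 kb, picked in the same way, there were 75 sites in serum2i Tdg, 139 in serum Tdg, 10 in serum2i wt and 9 in serum wt cells, with a ratio of -2.15 (-2.22 to -2.09). Before the first listed start the ratio was -0.63 and from it on -1.46. These stretches were chosen for their difference, so the values are descriptions.

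**Figure D3:**
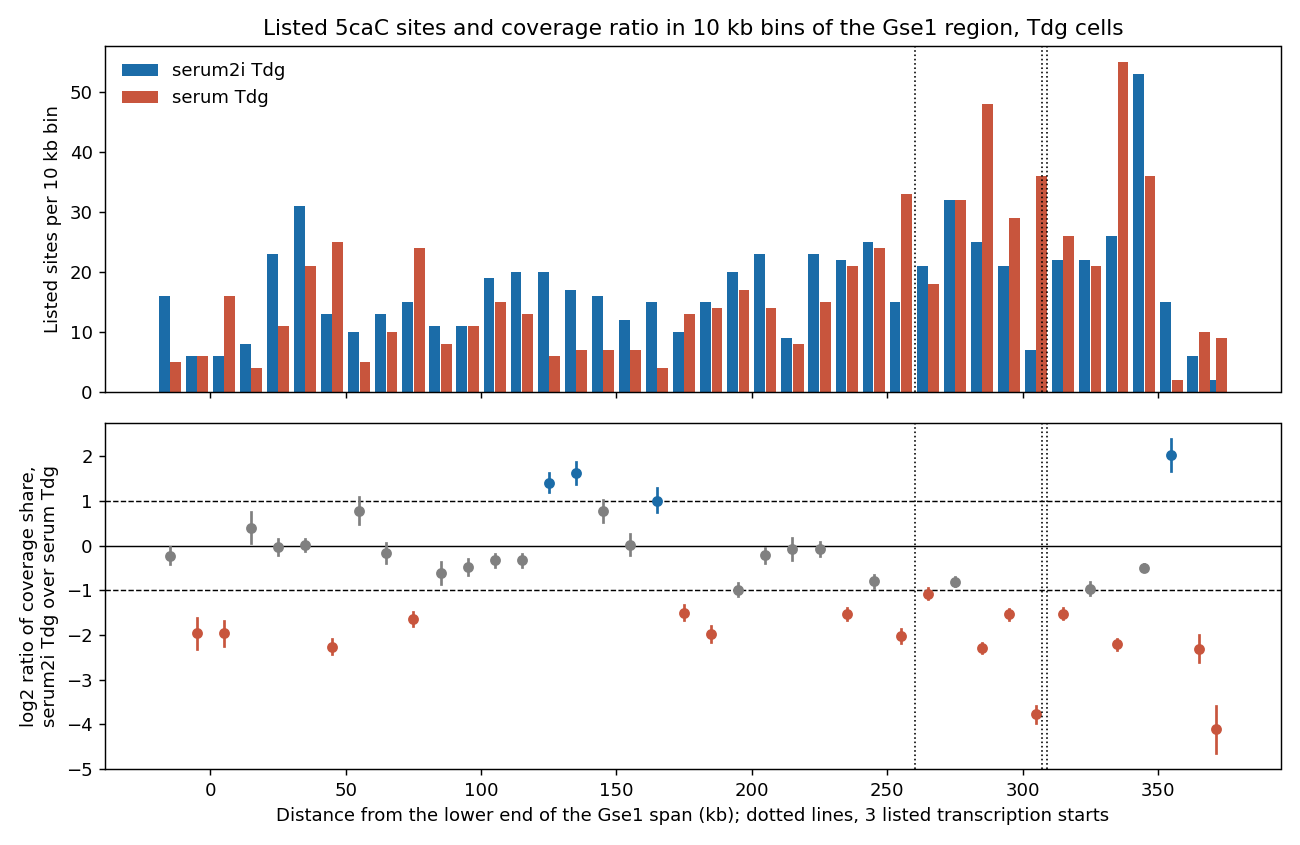
Upper panel, listed sites in each 10 kb bin of the Gse1 region in serum2i Tdg (blue) and serum Tdg cells (red). Lower panel, log2 ratio of the bin's coverage share, serum2i Tdg over serum Tdg, with exact 95% intervals for counting error; blue bins were called higher (4), red bins lower (16) and grey bins neither (20), dashed lines mark a 2-fold difference, and dotted lines the 3 listed starts. The horizontal axis is the distance from the lower end of the span in kb.

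The highest sites of both Tdg groups lay near the 3′ end of the gene. Position 120575183, 6.2 kb before the end of the span, had a mean coverage of 199 in serum2i Tdg and 273 in serum Tdg cells and was listed in neither wt group. It ranked 21 in serum2i Tdg and 3 in serum Tdg cells among all sites of the genome. Position 120575202, just after it, had 97.5 in serum2i Tdg and 163.5 in serum Tdg cells. Position 120574420 had 193 in serum2i Tdg, 132 in serum Tdg and 28 in serum2i wt cells and was not listed in serum wt cells. It was the highest Gse1 site of serum2i wt cells. These 3 sites lie within 1 kb of each other.

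Other high sites had unequal coverage in the 2 media, before any scaling to the groups' totals. Position 120363884 had 104 in serum2i Tdg, 15.5 in serum Tdg and 6.5 in serum2i wt cells. Position 120331223, inside the long non-coding RNA gene Gm32968, had 116 in serum2i Tdg and 88 in serum Tdg cells, less of a lead than serum2i Tdg cells had in the summed coverage of the table. Position 120490930 had 51.5 in serum2i Tdg and 144.5 in serum Tdg cells, and it lies near the Gm51556 start. Position 120527512 had 84 in serum2i Tdg, 126.5 in serum Tdg and 6 in serum wt cells.

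Of the 5 highest sites of each wt group, all but 1 in each were also listed in a Tdg group. In serum2i wt cells, position 120411167 had 22, and it had 5.5 in serum wt cells and was listed in neither Tdg group. Position 120566380 had 20.5 in serum2i wt cells, beside 7 in serum2i Tdg and 27.5 in serum Tdg cells. Position 120264146 had 77 in serum2i Tdg, 21 in serum Tdg and 20 in serum2i wt cells. Position 120309964 had 14.5 in serum2i Tdg, 19.5 in serum2i wt and 4.5 in serum wt cells. Coverage in serum wt cells was low even at its highest sites. The first of them, 120519223, had 11.5 and was listed in no other group. Position 120507421 had 8.5 in serum2i Tdg, 7.5 in serum Tdg and 9 in serum wt cells. Position 120568018 had 12.5 in serum2i Tdg, 21 in serum Tdg and 7.5 in serum wt cells. Position 120520731 had 8 in serum2i Tdg, 17 in serum Tdg and 7 in serum wt cells. Coverage is not scaled between groups, so a value in one group is not a level relative to another.

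Only 4 positions were listed in all 4 groups. Position 120506211 had 107.5 in serum2i Tdg, 49 in serum Tdg, 9.5 in serum2i wt and 3.5 in serum wt cells. Position 120421936 had 52 in serum2i Tdg, 74 in serum Tdg, 15 in serum2i wt and 7 in serum wt cells. These 2 were also the highest of the 4 in serum2i Tdg cells. Position 120501564 had 49 in serum2i Tdg, 13 in serum Tdg, 7 in serum2i wt and 3 in serum wt cells. Position 120553951 had 28.5 in serum2i Tdg, 15 in serum Tdg, 13 in serum2i wt and 6 in serum wt cells. All but 120421936 were higher in serum2i than in serum Tdg cells, and all were higher in either Tdg group than in either wt group.

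Sites stood close together, which in Tdg cells follows largely from the choice of the gene by its number of sites. In wt cells it is not independent of that choice either. The median distance from a Gse1 site to the next was 159 bp in serum2i Tdg, 79 bp in serum Tdg, 1451 bp in serum2i wt and 4679 bp in serum wt cells, against 308, 183, 5265 and 43293 bp over the genome. The longest stretch of the region without a site was 6.54 kb in serum2i Tdg, 13.5 kb in serum Tdg, 16 kb in serum2i wt and 47.7 kb in serum wt cells. Tight runs, taken as 10 sites or more in which neighbours lie up to 100 bp apart, numbered 1 in serum2i Tdg and 4 in serum Tdg cells, of 429 and 1110 in the genome, and 0 in either wt group.

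The runs were mostly those of 1 medium. The run with most sites had 34 in 632 bp in serum Tdg cells, at chr8:120567846-120568477, with a median coverage of 16 and a range of 7 to 75. In the same 632 bp, serum2i Tdg cells had 7 sites, serum2i wt cells 2 and serum wt cells 1. The run of 13 sites at chr8:120486360-120486640 in serum Tdg cells held 1 site of serum2i Tdg cells, and the run of 13 at chr8:120598374-120598729 held 4. The run of 10 at chr8:120275828-120276204 in serum Tdg cells held 3. In contrast, the run of 10 sites in serum2i Tdg cells at chr8:120575022-120575259, which holds position 120575183, was also dense in serum Tdg cells, with 8 sites. The runs were found by their density in 1 group, so a lower count in the other group is a description.

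Positions listed in more than 1 group made up a larger share in Gse1 than over the rest of the table. The gene was chosen by its number of sites in the Tdg groups, and that number enters these shares. Of the 1111 positions, 700 (63.0%) were listed in 1 group, 362 (32.6%) in 2 groups, 45 (4.05%) in 3 and 4 (0.360%) in all 4. Elsewhere in the genome these shares were 73.9%, 24.0%, 2.04% and 0.0658%. The most frequent patterns were serum Tdg alone (325 positions), serum2i Tdg alone (305) and both Tdg groups (298). The next were serum2i wt alone (61 positions), both serum2i groups (43) and both Tdg groups with serum2i wt (29).

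**Figure D4:**
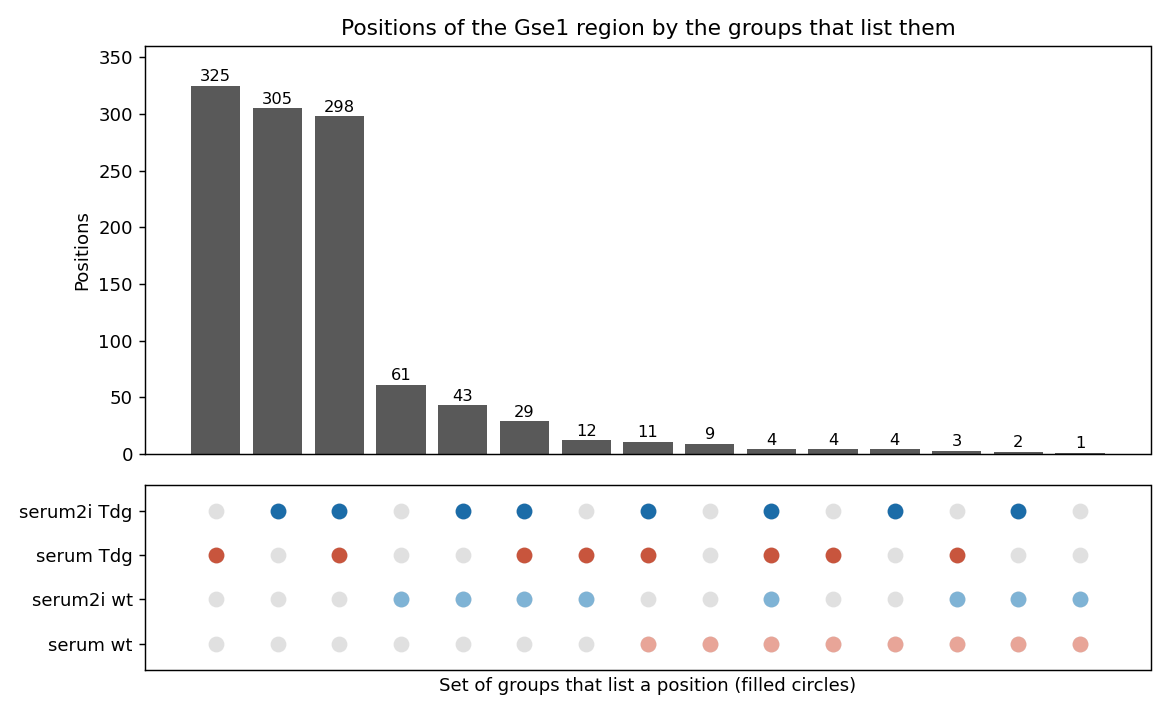
Number of Gse1 positions (bars, vertical axis) for each set of groups that list them, the sets marked by filled circles below. Serum Tdg alone (325), serum2i Tdg alone (305) and both Tdg groups (298) make up most of the 1111 positions, and 4 are listed in all groups.

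Of the 696 sites of serum2i Tdg cells, 342 were also listed in serum Tdg cells, or 49.1% (exact 95% interval 45.4 to 52.9), against 28.7% elsewhere in the genome. Of the 686 sites of serum Tdg cells the same 342 made up 49.9% (46.0 to 53.7), against 52.8% elsewhere. The share of serum2i Tdg sites was thus above that of the rest of the table and the share of serum Tdg sites was not, beside nearly equal numbers of sites in Gse1 and unequal numbers elsewhere. Of the 155 sites of serum2i wt cells, 50.3% (42.2 to 58.4) were listed in serum2i Tdg cells, against 49.1% elsewhere. They were listed in serum Tdg cells in 31% of cases (23.8 to 38.9), against 17.7% elsewhere. Of the 38 sites of serum wt cells, 57.9% (40.8 to 73.7) were listed in serum Tdg cells, against 54.4% elsewhere, and 26.3% (13.4 to 43.1) in serum2i wt cells, against 11.4% elsewhere. Of the 183 positions listed in a wt group, 71 (38.8%, 31.7 to 46.3) were listed in neither Tdg group, against 47.6% elsewhere.

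Between the Tdg groups, sites with more coverage recurred more often. Of the serum2i Tdg sites in Gse1 with a coverage of up to 9.5, 26.2% were listed in serum Tdg cells, and of those above 21, 72.7%. Elsewhere the same shares were 14.8% and 49.4%. Of the serum Tdg sites with up to 10, 28.5% were listed in serum2i Tdg cells, and of those above 23.5, 68.8%, against 36.7% and 74.4% elsewhere. Serum2i Tdg sites had a median coverage of 16.5 where serum Tdg cells listed them too and 11 where they did not. Serum Tdg sites had 19.5 where serum2i Tdg cells listed them and 13 where they did not. For recurrence in wt cells of the same medium, serum2i Tdg sites had a median of 13.75 where serum2i wt cells listed them and 13 where they did not, against 17.5 and 13 elsewhere. Serum Tdg sites had a median of 18.25 (upper quartile 42.9) where serum wt cells listed them, at 22 sites, and 16 (25.5) where they did not.

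Coverage per site in Gse1 was close to that of the genome. The median was 13 in serum2i Tdg cells (quartiles 9.5 and 21.5, highest 199), 16 in serum Tdg cells (10.6 and 25.5, highest 273), 7.5 in serum2i wt cells (6 and 10, highest 28) and 4.5 in serum wt cells (3.5 and 5, highest 11.5). Outside the region the medians were 13.5 in serum2i Tdg, 14.5 in serum Tdg, 7.5 in serum2i wt and 4.5 in serum wt cells. Gse1 was chosen by its number of sites and not by the coverage of each. The 5 highest sites held 5.60% of the region's coverage in serum2i Tdg, 5.44% in serum Tdg, 8.07% in serum2i wt and 22.7% in serum wt cells.

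At the 342 sites listed in both Tdg groups, coverage in the 2 media was loosely related. The correlation across these sites was 0.39 by Pearson on the log2 scale and 0.30 by Spearman, against 0.28 and 0.25 over 197395 shared sites elsewhere. The sites share their libraries and are not independent replicates. Median coverage was 16.5 in serum2i Tdg and 19.5 in serum Tdg cells. It was higher in serum2i Tdg cells at 148 sites, higher in serum Tdg cells at 189 and equal at 5. Elsewhere it was higher in serum2i Tdg cells at 100473 and in serum Tdg cells at 93556 of the shared sites, the opposite lean. It was at least 2-fold higher in serum2i Tdg cells at 45 Gse1 sites and in serum Tdg cells at 87, against 40103 and 35573 sites elsewhere. These values are not scaled to the groups' totals.

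**Figure D5:**
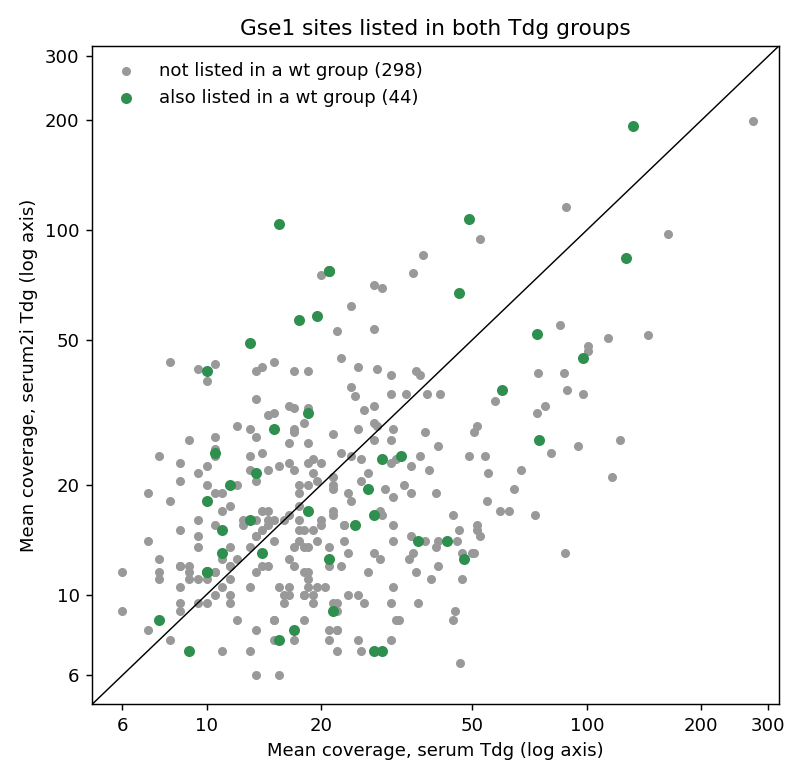
Mean coverage in serum2i Tdg cells (vertical log axis) against that in serum Tdg cells (horizontal log axis) at the 342 Gse1 sites listed in both, with the line of equal coverage. Green points are also listed in a wt group, grey points are not, and 148 of the points lie on the serum2i Tdg side of the line and 189 on the other, against 100473 and 93556 of the shared sites elsewhere.

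As a whole, the Gse1 region took up 0.104% of the summed coverage of serum2i Tdg cells and 0.206% of that of serum Tdg cells. The log2 ratio was -0.99 (-1.01 to -0.96), just short of a 2-fold difference, so the region was neither higher nor lower by the rule. Of 12575 protein-coding genes compared, 28.5% were higher and 25.1% lower, and the median ratio was 0.09. When the ratios were centred on that median, Gse1 passed the rule at -1.08. The summed coverage itself was 12843 in serum2i Tdg and 15442 in serum Tdg cells. The choice of the gene by its number of sites in these groups enters this ratio too.

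In wt cells the region took up 0.153% of the coverage in serum2i and 0.429% in serum, a log2 ratio of -1.48 (-1.64 to -1.32), which counts as lower. That is near the median of all genes, -1.50, and 58.6% of 2919 genes were lower and 5.31% higher. Centred on the median the ratio was 0.02, and 775 genes were then higher and 710 lower, against 155 and 1711 before. The Gse1 ratio between media in wt cells was thus near the median of the genes listed in both groups. The other genes named above for their sites went both ways. The ratio was 0.74 in Zfhx3, 0.95 in Msi2, 1.35 in Prdm16, 1.40 in Tenm3 and 2.09 in Slc39a11. These values rested on 2 to 7 serum wt sites each. It was -0.07 in Sh3pxd2a, -0.91 in Casz1, -2.42 in Nfix and -3.11 in Sfi1.

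Between genotypes in serum the region took up 0.206% of the coverage in Tdg and 0.429% in wt cells, a log2 ratio of -1.05 (-1.20 to -0.90), which counts as lower. The median of all genes was -1.28, and 55.6% of 3182 genes were lower and 3.77% higher. Centred on the median the ratio was 0.22, and 757 genes were then higher and 788 lower, against 120 and 1770 before. In serum2i the region took up 0.104% in Tdg and 0.153% in wt cells, a log2 ratio of -0.56 (-0.62 to -0.50), neither higher nor lower, beside a median of -0.22. Of 10952 genes, 11.1% were higher and 21.7% lower. The summed coverage itself, unscaled, was higher in Tdg cells: it was 12843 in serum2i Tdg and 15442 in serum Tdg cells, against 1363 in serum2i wt and 185 in serum wt cells. The 4 comparisons share their groups and are not independent of each other.

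The other genes of the complexes in which human GSE1 is found were for the most part less densely listed than Gse1. That follows in part from the choice of Gse1 by its number of sites. The list of 15 genes held 521 sites in serum2i Tdg, 234 in serum Tdg, 81 in serum2i wt and 6 in serum wt cells in all, fewer than Gse1 alone in each. The median density over the list was 0.496 sites per kb in serum2i Tdg and 0.217 in serum Tdg cells, against 0.282 and 0.103 over all protein-coding genes. One of them, Hmg20b, was denser than Gse1 in serum Tdg cells (2.04 against 1.86 sites per kb, on 10 sites), and Rcor2 was denser in serum wt cells (0.128 against 0.102, on 1 site). Kdm1a, which encodes LSD1, had 47 sites in serum2i Tdg and 15 in serum Tdg cells. Ctbp2, a corepressor gene, had most, with 165 in serum2i Tdg and 76 in serum Tdg cells. Zfp217, a zinc finger gene, had 62 in serum2i Tdg and 39 in serum Tdg cells.

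Between the media in Tdg cells, 4 of the 15 genes were higher, 3 lower and 8 neither, near the background of 28.5% and 25.1%. The higher ones were Zmym2 (2.29), a zinc finger subunit gene, the deacetylase genes Hdac1 (1.72) and Hdac2 (1.07), and Rcor1 (1.18), which encodes CoREST itself. The lower ones were Hmg20b (-1.80), a high mobility group subunit gene, Zmym3 (-1.05), and Rcor2 (-1.02), a CoREST paralogue. The median log2 ratio of the list was 0.23, beside 0.09 for all genes. Kdm1a had 0.84 and Ctbp2 0.23. Between genotypes in serum2i, 1 gene was higher (Hdac1, 1.28), 2 were lower, among them Zmym2 (-1.13), and 12 were neither, beside 11.1% higher and 21.7% lower over all genes, with a median of -0.25 beside -0.22. With serum wt cells on one side only 5 of the 15 could be compared. Of these, Rcor2 was lower between the media in wt cells (-4.37) on 1 site in each group, and Rcor2 (-2.45) and Phf21a (-1.76) were lower between genotypes in serum. Lower was also the most frequent call over all genes there, at 58.6% between the media and 55.6% between genotypes.

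There were 11 protein-coding neighbours within 300 kb of the span, and their calls went both ways. Emc8, an endoplasmic reticulum membrane complex gene, was as dense as Gse1 in serum2i Tdg cells (1.90 sites per kb) but not in serum Tdg cells (0.353). Cox4i1, a cytochrome c oxidase subunit gene, had 1.67 sites per kb in serum2i Tdg and 2.01 in serum Tdg cells, and 1190005I06Rik had 1.28 and 2.06. Gins2, a DNA replication gene that overlaps the last bases of the Gse1 span, had 13 sites in serum2i Tdg, 1 in serum Tdg and 3 in serum2i wt cells. Between the media in Tdg cells, Gins2 (2.37) and Emc8 (2.32) were higher. Zdhhc7 (-1.87), Cibar2 (-1.28), 1190005I06Rik (-2.09) and Cox4i1 (-1.72) were lower. The other 5, Usp10, Crispld2, 6430548M08Rik, Gm27021 and Irf8, were neither. The 2 higher and 4 lower of 11 stand beside a background of 28.5% higher and 25.1% lower. The 11 are not all separate: the span of Gm27021 holds those of 1190005I06Rik and Emc8 and counts their sites again.

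The genes whose profile over the 4 groups was nearest to that of Gse1 were Syt2, Grm4, Vps26a, Maneal and Ngef. Likeness was measured over 2893 genes as the Euclidean distance between profiles of log2 coverage share per kb, each centred on its mean over the 4 groups. The distances were 0.07, 0.09, 0.14, 0.14 and 0.15, against a median of 1.56. Syt2, a synaptotagmin gene, had 63 sites in serum2i Tdg, 61 in serum Tdg, 10 in serum2i wt and 2 in serum wt cells, and Grm4, a glutamate receptor gene, had 108, 97, 24 and 6. Both lie on other chromosomes and held far fewer sites than Gse1.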

How the data were processed

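In sheared DNA, glycosylation blocked 5-hydroxymethylcytosine and methylation blocked unmodified CGs, per the labels' protocols. An engineered SssI methyltransferase took the carboxyl group off 5caC and left an azide, which served to enrich the fragments for Ion Proton sequencing. The submitters' processing notes name the build mm10; in the sources used here, no aligner or site caller is named. Coverage, per the authors' deposited table, is a signal that is never negative and comes in steps of 0.5, for each listed position and group. Columns of other samples numbered 0.

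Deposited positions count from 0: after adding 1, each of the 14229 listed positions inside RefSeq promoter windows was the C of a CG. All coordinates here count from 1. Sequences, spans and names came from RefSeq tables for GRCm38.p6.

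Sites were counted and coverage summed per gene span, per 10 kb bin and in the Gse1 region. Genes with a summed coverage averaging at least 20 over the 4 listed groups, and listed in both groups compared, entered a comparison. Shares of summed coverage were compared by log2 ratios with exact conditional Clopper-Pearson 95% intervals, from coverage summed over 2 replicates; shares of sites have exact binomial 95% intervals. Reads are PCR copies with no molecular identifiers, so all intervals cover counting error only. The replicates are technical. Steps were tested on simulated data. Python 3.11.15, pandas 2.3.3 and scipy 1.17.1 were used.

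Genes named were Gse1, the 15 genes of the complex list, neighbours within 300 kb, the 5 genes with most sites in each Tdg group, the 3 densest like-span genes and the 5 nearest profiles. Sfi1 was named after its value was seen, and 1 lower call of the complex list is not reported here by name. Sites named were the 5 highest of each group and those listed in all 4. Bins named were the fullest of each group, those without a site and the extremes of the ratio; for serum wt cells, with many empty bins, only the fullest is given. Members and lists were chosen with earlier results of these data known. Alternatives were a common minimum coverage of 6, the span without flanks, shares of sites, coverage capped at the 99th percentile, scaling by the median ratio, no filter, bins of 5 and 20 kb and gaps of 200 bp.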

Additional observations from a re-analysis of the deposited data

How the results depend on the processing

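With the ratios centred on the median of all genes, the sign turned in both comparisons with serum wt cells, to 0.016 for serum2i wt over serum wt and to 0.22 for serum Tdg over serum wt. The other Gse1 ratios then were -1.08 for serum2i Tdg over serum Tdg, now lower by the rule, and -0.33 for serum2i Tdg over serum2i wt. Genes called higher and lower then numbered 775 and 710 for serum2i wt over serum wt, and 757 and 788 for serum Tdg over serum wt. With a common minimum coverage of 6, the ratios were -1.09 for serum2i wt over serum wt, -0.76 for serum Tdg over serum wt, no longer lower by the rule, and -0.66 for serum2i Tdg over serum2i wt. That minimum left serum wt cells 7 Gse1 sites, of which 85.7% lay in the 3′-most of 4 equal parts and 85.7% were listed in serum Tdg cells; genes called higher and lower fell to 3 and 764 for serum2i wt over serum wt and to 1 and 825 for serum Tdg over serum wt, since serum wt cells list few sites at 6 or more. By shares of sites the ratios were -0.86 for serum2i Tdg over serum Tdg, -1.64 for serum2i wt over serum wt, -1.26 for serum Tdg over serum wt and -0.47 for serum2i Tdg over serum2i wt. With gaps of up to 200 bp, runs numbered 5 in serum2i Tdg and 8 in serum Tdg cells. Over all alternatives, 2 values turned their sign, 22 moved beyond the limit used and 52 stayed within it. The Tdg groups list only from 6, so the common minimum could not change Gse1 values that rest on them alone. Those values are counted among the 52 and say nothing about stability. A count stayed within the limit if it changed by up to 1.5 times, and a percentage or ratio if it stayed inside the reported value's 95% interval. The share of bins called higher was 10% with 10 kb bins, 12.9% with 5 kb bins and 5% with 20 kb bins, within that interval. No paired analysis was possible because the table gives 1 value per group; the replicate block and leaving out each replicate were therefore not run. A position that a wt group does not list may lie below its minimum, read depth is not given in the table, and counts in serum wt cells rest on 38 sites.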

Other observations

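Other annotated spans inside the region held listed sites as follows. Gm32968, a long non-coding RNA gene within Gse1 (mm10 chr8:120327677-120339024), had 22 sites in serum2i Tdg, 16 in serum Tdg, 4 in serum2i wt and 0 in serum wt cells. Gm10614, a long non-coding RNA gene in the upper flank (mm10 chr8:120589177-120599278), had 8 in serum2i Tdg, 19 in serum Tdg, 3 in serum2i wt and 0 in serum wt cells. A330074K22Rik, which lies below the gene and reaches beyond the lower edge, had 22, 11, 2 and 2 in its part of the region. Gm51556 had 3 in serum2i Tdg, 7 in serum Tdg, 0 in serum2i wt and 1 in serum wt cells, and Gm39264 had 2, 1, 2 and 0. The short spans 1700016A09Rik and Mir7687, near start 3 of Gse1, held no listed site in any group.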
